A study of Rattus norvegicus with 3 samples.

Results

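The genes described here are 10 genes of vascular growth signalling, namely the VEGF receptors Flt1, Kdr and Flt4, the VEGF family ligand Pgf, the receptors Tek and Tie1 with the angiopoietins Angpt1 and Angpt2, and the apelin receptor Aplnr with its ligand Apln. The genes were chosen by their function with the log2 ratios of these same arrays already known, so all values are descriptions. Each was read from every non-control probe whose accession belongs to it in the RefSeq annotation of the rat. This gave 15 probes for the 10 genes, out of 45562 probes and 38973 genes in all, and each of the 15 probes had 1 spot on an array. Of the 38973 genes, 16648 had a RefSeq symbol, and each accession without one was counted as a gene of its own. Shares and medians of all genes, and of fully measured genes as defined below, include these accessions. RNA came from the cerebellar cortex of male Wistar rats, 9 weeks old, 2 days after transient occlusion of the right middle cerebral artery (MCAO) through a filament, or after a sham operation in which the right common carotid artery was exposed and not opened. The contralateral array held the left cerebellar cortex of the MCAO group, the ipsilateral array held its right cerebellar cortex, and the control array held the left cerebellar cortex of the sham group. Tissue of 4 rats was pooled for each array, both MCAO pools came from the same rats, and MCAO rats had been selected for a set range of neurological scores. There was 1 array per group, so no test was made, and every difference below is one between pools. The right side of sham rats was not analysed here, so for the ipsilateral array the side and MCAO cannot be told apart.

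Blood vessels grow and are maintained through a few families of receptors on endothelial cells. VEGF ligands act on Kdr, the main signalling receptor, and on Flt1, which binds VEGF tightly and limits what reaches Kdr, while Flt4 serves mainly lymphatic and sprouting endothelium. Angpt1, from cells around the vessel, activates Tek and steadies the vessel wall, Angpt2 from endothelial cells opposes it in many settings, and Tie1 modulates Tek. Apelin and its receptor Aplnr act in sprouting vessels and in the control of vessel calibre. In the brain most of these receptors mark endothelium, which makes up a small part of cerebellar cortex.

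Each array gave the fluorescence intensity of its spots, and the signals given here were scaled so that the 75th percentile of the spots that are not controls was the same on the 3 arrays, at 1994. Before scaling this percentile was 2103 contralaterally, 1614 ipsilaterally and 2336 in the control group. Well above background means that the scanner software called the spot so. Of the 15 probes, 14 were well above background on all 3 arrays, and no spot was saturated. The log2 ratio is the difference of the scaled log2 signals, averaged over the probes of a gene. Its scanner error is the error that the software gives for the spots, which was 0.20 to 0.29 for the 10 genes contralaterally and 0.20 to 0.34 ipsilaterally, and which covers neither rats nor hybridisations. The threshold for a call was a ratio above 1 or below -1, a 2-fold difference on the log2 scale. Genes whose probes were all well above background on each array, 22090 in number, are termed fully measured. The 10 granule cell markers and the 10 Purkinje cell markers, such as Gabra6, Cbln1, Pcp2 and Car8, were well above background on every array. So were most of the 58717 spots that are not controls, namely 42470 contralaterally, 43028 ipsilaterally and 43283 in the control group. The origin of the tissue was therefore not tested by these markers.

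**Figure D1:**
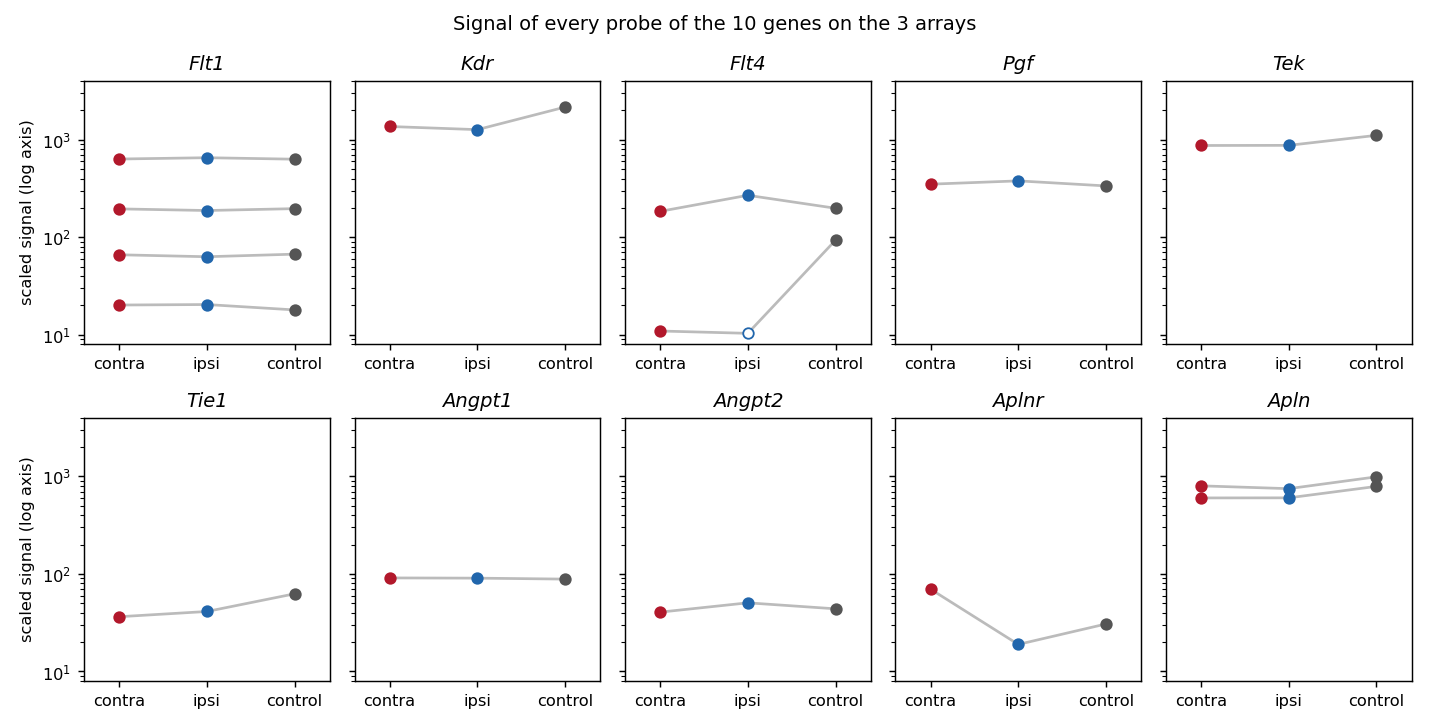
Scaled signal (arbitrary fluorescence units, log axis) of each of the 15 probes on the contralateral (contra), ipsilateral (ipsi) and control arrays, with 1 panel per gene and grey lines joining the spots of 1 probe; the open symbol was not well above background. The probes of Kdr, Tek, Tie1 and Apln were brightest on the control array, the 4 probes of Flt1 were level, the probes of Flt4 disagreed, and Aplnr was brightest on the contralateral array.

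Kdr, the main VEGF signalling receptor, was lower on both sides of the cerebellar cortex after MCAO than in the control group. Its probe had a scaled signal of 1367 contralaterally, 1269.5 ipsilaterally and 2163 in the control group. The MCAO arrays thus lay close to each other and below the control array, at 63.2% and 58.7% of its signal. The log2 ratio to the control group was -0.66 contralaterally, with a scanner error of 0.20, and -0.77 ipsilaterally, with the same error. Of the fully measured genes, 2.86% had a contralateral ratio as low as that of Kdr and 1.69% an ipsilateral one. Kdr did not pass the threshold on either side.

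Flt1, the VEGF receptor that acts in large part as a trap for its ligands, was level across the 3 arrays. It was read from 4 probes, 3 designed on the transcript NM_001309381 and 1 on NM_019306. The brightest Flt1 probe had scaled signals of 634.2 contralaterally, 654.3 ipsilaterally and 631.7 in the control group. The dimmest, on NM_019306, had 20.2, 20.4 and 18.0 in the same order. Single probes had contralateral log2 ratios between -0.021 and 0.17 and ipsilateral ones between -0.088 and 0.18. All 4 thus lay within their scanner error of 0 on both sides, and their mean was 0.036 contralaterally and 0.021 ipsilaterally, with errors of 0.24 and 0.25. Kdr and Flt1, which share ligands, therefore had different ratios to the same control array.

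Flt4, the receptor for the lymphatic VEGF ligands, was read from 2 probes that disagreed, although both were designed on the same transcript. The brighter Flt4 probe, A_64_P109023, had scaled signals of 184.3 contralaterally, 269.3 ipsilaterally and 198.3 in the control group. Its log2 ratio was -0.11 on the contralateral side, within the scanner error of 0.21, and 0.44 on the ipsilateral side, with the same error. The dimmer Flt4 probe, A_64_P140701, had 10.9 and 10.3 on the MCAO arrays and 93.4 on the control array. It was high on the control array alone, with a log2 ratio of -3.10 contralaterally, with a scanner error of 0.37. On the ipsilateral array this spot was not well above background, so the control signal was at least 7.54-fold higher. The mean of both probes gives Flt4 a log2 ratio of -1.60 contralaterally. Ipsilaterally no exact mean exists, and with the dim spot at its bound it was at or below -1.24, so both means lay below the threshold of -1. They did not with normexp, at -0.29 and 0.034, or with 50 added to the signal, at -0.64 and -0.24. Relative to the median of all genes these values were -0.38 and -0.30 with normexp, and -0.74 and -0.59 with 50 added. By the brighter probe alone Flt4 passed the threshold on neither side, and the ipsilateral value was above 0. The spot medians of the dimmer probe were 50, 43 and 91 pixel intensity units in the contralateral, ipsilateral and control group, against local backgrounds of 32, 29 and 30, and the values below -1 rest on this probe.

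Pgf, placental growth factor, a ligand of Flt1, did not differ by more than its scanner error on either side. Its scaled signals were 350.1 contralaterally, 378.6 ipsilaterally and 336.1 in the control group. The log2 ratio was 0.059 contralaterally and 0.17 ipsilaterally, each with an error of 0.20. Of other VEGF ligands, Vegfb, which also binds Flt1, had log2 ratios of -0.14 and -0.16 from 2 probes, and Vegfc, the ligand of Flt4, had -0.37 and -0.14, contralaterally and ipsilaterally. The error was 0.20 to 0.21 for both genes. Vegfd, another ligand of Flt4, was not well above background on any array.

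Both receptors of the angiopoietin system were lower after MCAO. Tek, the angiopoietin receptor, had scaled signals of 873.0 contralaterally, 876.0 ipsilaterally and 1109.5 in the control group. The MCAO arrays did not differ by more than the scanner error and were both dimmer than the control array, by log2 ratios of -0.35 and -0.34 with an error of 0.20. Tie1, the related receptor that modulates Tek, had 36.4 contralaterally, 41.2 ipsilaterally and 62.6 in the control group, which was the brightest. Its log2 ratio was -0.78 contralaterally, with an error of 0.23, and -0.60 ipsilaterally, with an error of 0.24. Of the fully measured genes, 1.89% had a contralateral ratio as low as that of Tie1 and 10.1% one as low as that of Tek. The local background of the Tek spot was flagged as an outlier on the contralateral array. The Tie1 spot was dim, and its ratios were -0.26 and 0.069 with the normexp alternative, which includes an offset of 50, and -0.33 and -0.045 with 50 added to the signal alone.

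The angiopoietins themselves did not differ from the control group by more than the scanner error. Angpt1, the agonist of Tek, had scaled signals of 91.1 contralaterally, 90.6 ipsilaterally and 88.6 in the control group, and log2 ratios of 0.040 and 0.033. Angpt2, the context-dependent antagonist, had 40.6, 50.6 and 43.9 in the same order. Its log2 ratio was -0.11 contralaterally and 0.20 ipsilaterally, with scanner errors of 0.23 and 0.24. Between the sides Angpt2 was lower contralaterally by a log2 ratio of -0.32, with an error of 0.24, and relative to the median of all genes by -0.21.

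Aplnr, the apelin receptor, was the gene of the 10 with the widest difference between the MCAO sides. Its probe had scaled signals of 69.9 contralaterally, 18.9 ipsilaterally and 30.7 in the control group. The contralateral array was the highest of the 3 and the ipsilateral array the lowest. The log2 ratio to the control group was 1.19 contralaterally, with a scanner error of 0.26, and -0.70 ipsilaterally, with an error of 0.34. Between the sides it was 1.88, with an error of 0.34, and 12 of the fully measured genes, Aplnr included, had a ratio between the sides at least as high. All of this rests on 1 spot per array, with spot medians of 89, 49 and 67 pixel intensity units over local backgrounds of 33, 32 and 29. With normexp the contralateral ratio of Aplnr was 0.43 and the ipsilateral one 0.13, and with 50 added to the signal they were 0.67 and 0.12, so the contralateral value no longer passed the threshold and the ipsilateral value was positive. After quantile normalization the ipsilateral ratio of Aplnr was just below -1, at -0.9955 relative to a median of all genes of -0.0104. Between the sides it was 0.30 with normexp, where Tie1 was at -0.32 and the median of all genes at -0.23. Relative to the median of all genes Aplnr stayed between 0.34 and 1.18 contralaterally and between -0.996 and -0.21 ipsilaterally over the 12 settings, and between 0.53 and 2.16 between the sides, the widest of the 10 in each setting.

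Apln, the ligand apelin, was lower on both sides by a similar amount. Its first probe, A_42_P637189, had scaled signals of 602.1 contralaterally, 603.3 ipsilaterally and 790.8 in the control group. Its second, A_44_P1155227, had 801.1, 749.4 and 991.1 in the same order. The probes of Apln agree within their scanner error, with contralateral log2 ratios of -0.39 and -0.31 and ipsilateral ones of -0.39 and -0.40. Their mean was -0.35 contralaterally and -0.40 ipsilaterally, with an error of 0.20. Apln and Aplnr thus lay on opposite sides of the control group in the contralateral cerebellar cortex. The other apelin receptor ligand, Apela, was not matched to a probe.

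**Figure D2:**
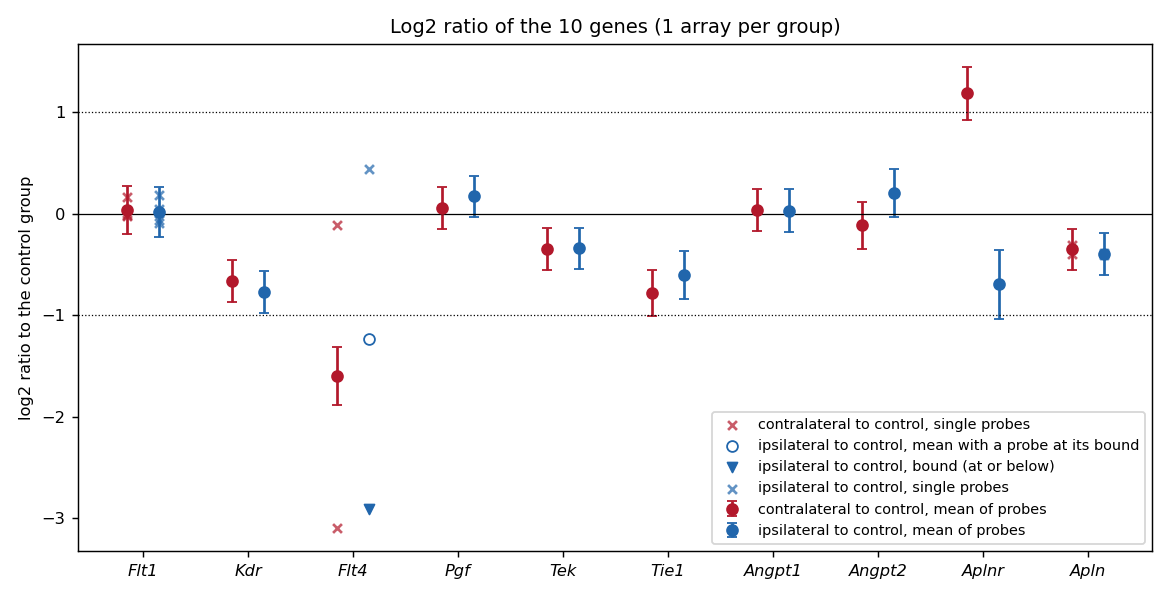
Log2 ratio to the control group of each of the 10 genes, contralateral in red and ipsilateral in blue; circles are means over the probes of a gene, bars are the scanner error, crosses are single probes of genes with more than 1 probe, the triangle is a probe at its bound, the open circle is the mean with it, and dotted lines mark the thresholds of -1 and 1. Kdr, Tek, Tie1 and Apln lay below 0 on both sides, Flt1, Pgf, Angpt1 and Angpt2 lay within their error of 0, and the probes of Flt4 lay at 0.44 and at or below -2.91 on the ipsilateral side.

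Of the 10 genes, 1 lay above 1 in the contralateral cerebellar cortex, Aplnr, and 1 below -1, Flt4, where 4.7% of all 38973 genes lay above 1 and 6.48% below -1. Ipsilaterally none lay above 1, against 13.4% of all genes, and Flt4 alone lay below -1, against 3.14%. Below 0 lay 6 of the 10 on each side, against 44.6% of all genes contralaterally and 34.8% ipsilaterally. These counts rest on few genes and nothing is read from them beyond the list.

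Leaving out Flt4, which was not fully measured, the other 9 had 1 contralateral ratio above 1, none below -1 and 5 below 0, where the shares of fully measured genes were 1.41%, 0.856% and 47.6%. Ipsilaterally the 9 had none above 1, none below -1 and 5 below 0, against 3.1%, 0.801% and 44.1%. The median log2 ratio of all 10 was -0.23 contralaterally, where that of all genes was 0.039, and -0.37 ipsilaterally, where it was 0.13, also with Flt4 at its bound. Over the 9 it was -0.11 contralaterally and -0.34 ipsilaterally, where that of fully measured genes was 0.012 and 0.030. With the dimmer Flt4 probe left out and all 10 kept it was -0.11 and -0.16, and with the brightest probe of each gene -0.11 and -0.15. The ipsilateral median was positive with normexp, at 0.099, and with 50 added to the signal, at 0.040, where the medians of all genes were 0.34 and 0.35. Contralaterally 5 genes were lower than the control group by more than their scanner error (Kdr, Flt4, Tek, Tie1 and Apln) and 1 was higher (Aplnr), with Flt4 among them through its dimmer probe. Ipsilaterally Kdr, Tek, Tie1, Apln and Aplnr were lower, while Flt4 was lower by a spot with a bound only, and its other probe was higher. Both comparisons use the same control array, and many of the 10 genes may be expressed by the same cells, which bulk pools do not resolve.

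Between the contralateral and the ipsilateral side 2 of the 10 genes differed by more than their scanner error, Aplnr at 1.88 and Angpt2 at -0.32. Aplnr alone of the 10 lay above 1, against 1.85% of all genes, and it did not with normexp, at 0.30, or with 50 added to the signal, at 0.55. Among the 9 fully measured genes 1 lay above 1, none below -1 and 4 below 0, against 0.217%, 1.54% and 53% of fully measured genes, and their median log2 ratio was 0.0077, where that of fully measured genes was -0.0099. With Flt4 as measured none of the 10 lay below -1, against 13.4% of all genes, 5 lay below 0, against 65.4%, and the median was 0.0014, against -0.11, but the sign of Flt4 is not determined here. For 7 further genes the sides differed by less than the scanner error, with Kdr at 0.11, Apln at 0.047, Tek at -0.0050 and Tie1 at -0.18, and Flt4 has no exact mean between the sides. Of single probes, the brighter probe of Flt4 was lower contralaterally by a log2 ratio of -0.55, with an error of 0.21.

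Promoter sequence was at hand for 6 of the 10 genes, from RefSeq on the GRCr8 build. The 250 bases before the transcript start are shown for Kdr, Tie1 and Apln, whose probes were lower on both sides, and for Flt1, which was level, 5′ to 3′ on the strand of the gene. Capitals mark GGAA or its reverse complement TTCC, the core letters bound by ETS factors.
Kdr, chr14:32571813-32572062, plus strand: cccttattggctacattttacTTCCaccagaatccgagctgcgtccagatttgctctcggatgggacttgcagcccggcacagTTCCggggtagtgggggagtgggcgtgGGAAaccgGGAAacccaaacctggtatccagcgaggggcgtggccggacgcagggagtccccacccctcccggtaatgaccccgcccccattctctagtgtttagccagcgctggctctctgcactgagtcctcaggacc
Tie1, chr5:137304982-137305231, minus strand: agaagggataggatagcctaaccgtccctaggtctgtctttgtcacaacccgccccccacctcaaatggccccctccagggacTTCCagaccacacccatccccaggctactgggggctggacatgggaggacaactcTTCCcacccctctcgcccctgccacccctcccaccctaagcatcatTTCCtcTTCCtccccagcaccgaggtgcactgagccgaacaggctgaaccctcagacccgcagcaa
Apln, chrX:132091247-132091496, minus strand: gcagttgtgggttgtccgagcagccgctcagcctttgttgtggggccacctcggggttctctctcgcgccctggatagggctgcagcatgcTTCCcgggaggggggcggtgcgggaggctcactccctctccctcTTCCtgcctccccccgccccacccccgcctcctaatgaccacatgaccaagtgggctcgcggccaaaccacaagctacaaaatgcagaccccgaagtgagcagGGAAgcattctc
Flt1, chr12:12333180-12333429, plus strand: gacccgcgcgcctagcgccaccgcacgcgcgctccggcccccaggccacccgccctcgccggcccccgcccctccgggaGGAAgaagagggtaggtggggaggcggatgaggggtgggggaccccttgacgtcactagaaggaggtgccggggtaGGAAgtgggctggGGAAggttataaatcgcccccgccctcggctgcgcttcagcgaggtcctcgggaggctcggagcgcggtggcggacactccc

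The core was present 4 times in Kdr, 4 times in Tie1, 3 times in Apln and 3 times in Flt1, counted on both strands. It is frequent by its length, since 93.2% of 33469 promoter windows of 250 bases hold it, with a median of 3 matches. Flt1 thus held as many matches as Apln. The hypoxia response core RCGTG, where R is A or G, was present 2 times in Kdr, 1 time each in Flt1 and Pgf and in none of the other 3 windows, counted on both strands, and 36.7% of all windows hold it. The GATA core GATAA, or TTATC, was in none of the 6, against 23.5% of all windows. A match is only a description of these letters, and an absent match says only that these letters are not in this window.

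Other genes of the pathway lay on both sides of 0. Of 8 listed ligands of related families 6 were on the array. None passed the threshold contralaterally, where 4.7% of all genes lay above 1 and 6.48% below -1, and the median log2 ratio was -0.25. Ipsilaterally 2 were above 1, Angptl4 and Angpt4, against 13.4% of all genes, and none below -1, against 3.14%, and the median was 0.21, or -0.15 over the 4 that were fully measured. Over the alternatives the median of the ligands lay between -0.41 and 0.0087 contralaterally and between -0.33 and 0.32 ipsilaterally. The lowest of these values, and of those given below for the other 2 pathway lists, came from unscaled arrays, a setting that moves all genes alike. Relative to the median of all genes, the ligands lay between -0.30 and -0.084 contralaterally and between -0.19 and 0.092 ipsilaterally. Angptl4, a secreted inhibitor of lipoprotein lipase that also acts on vessels, had scaled signals of 1799 contralaterally, 1884 ipsilaterally and 941.3 in the control group. Both MCAO arrays were thus brighter than the control array, with log2 ratios of 0.93 and 1.001 and an error of 0.20. Angpt4, a further Tek ligand, was not well above background on any array, so no fold is given. Angptl2 was lower on both sides, at -0.77 and -0.66, with errors of 0.24 and 0.26.

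Of 19 listed coreceptors and regulators 14 were on the array. None passed the threshold contralaterally, where 4.7% of all genes lay above 1 and 6.48% below -1, and the median was -0.15. Ipsilaterally 1 was above 1, Notch4, against the same 13.4% of all genes, and none was below -1, against 3.14%. The ipsilateral median was 0.087. The median of the list lay between -0.30 and 0.069 contralaterally over the alternatives, and between -0.45 and 0.37 ipsilaterally. Relative to the median of all genes it lay between -0.24 and -0.024 contralaterally and between -0.18 and 0.063 ipsilaterally, and over the 9 fully measured genes it was -0.21 and -0.037. Nrp1, a VEGF coreceptor, had scaled signals of 36.2 contralaterally, 55.8 ipsilaterally and 56.8 in the control group. It was lower on the contralateral array alone, with a log2 ratio of -0.65 and an error of 0.27, from probes at -0.97 and -0.34. Sema3a, a semaphorin that acts through Nrp1, likewise had -0.72 contralaterally, with an error of 0.23, and -0.16 ipsilaterally. Notch1, the receptor of the Notch pathway that restrains sprouting, was lower on both sides, at -0.29 and -0.32, with an error of 0.20. Sema3e, which signals to endothelium through Plxnd1, was the highest fully measured gene of the list contralaterally, at 0.28, and was at 0.20 ipsilaterally. Sema3c was the highest ipsilaterally among them, at 0.69 with an error of 0.25, and was at -0.017 contralaterally. Cdh5, the cadherin of endothelial junctions, was at -0.089 contralaterally and 0.43 ipsilaterally, with an error of 0.21. The ipsilateral value of Notch4 rests on 1 of its 2 probes, at least 3.88-fold higher than a control spot not well above background, against a log2 ratio of 0.13 for the other.

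Of 24 listed signalling genes and targets 23 were on the array. Contralaterally none was above 1 and 3 were below -1, and ipsilaterally 2 were above 1 and none below -1. The shares of all genes were 4.7% and 6.48% contralaterally and 13.4% and 3.14% ipsilaterally. Of these 5 calls, 1 was of a fully measured gene, the contralateral value of Sh2d2a. The medians of the list were 0.0070 and 0.075, with alternatives from -0.14 to 0.077 contralaterally and from -0.46 to 0.25 ipsilaterally. Relative to the median of all genes they stayed between -0.032 and 0.010 and between -0.11 and 0.044. Foxo1, the transcription factor held in check by Tek and Akt signalling, had scaled signals of 280.2 contralaterally, 284.8 ipsilaterally and 171.3 in the control group. It was the highest fully measured gene of the list contralaterally, with a log2 ratio of 0.71, and was at 0.73 ipsilaterally, with an error of 0.21. Egr3, an early response transcription factor, was the highest fully measured gene of the list ipsilaterally, at 0.91 with an error of 0.28, and was at -0.11 contralaterally. Sh2d2a, an adaptor that binds Kdr, was the lowest fully measured gene of the list on both sides, at -1.31 and -0.69, with errors of 0.38 and 0.36. Sh2d2a was dim, with scaled signals of 12.3 contralaterally, 18.8 ipsilaterally and 30.4 in the control group. So was Egr3, with 16.1, 32.7 and 17.4 in the same order. The lowest scaled signals called well above background on these arrays were 9.1, 12.4 and 8.7. The brightest gene of the list, Prkca, was at 0.20 and 0.10, within its error of 0.20.

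Because the pools are bulk tissue, fewer endothelial cells and less RNA per endothelial cell cannot be told apart. Endothelial markers as a list had medians nearer to 0 than Kdr, but single ones, such as Emcn and Clec14a, lay below Kdr contralaterally. The number of endothelial cells was not tested. Of 25 listed markers 20 were on the array, and Sox17 was the 1 that no array showed well above background. Their median log2 ratio was -0.097 contralaterally and -0.058 ipsilaterally, with 12 and 11 genes below 0, where 44.6% and 34.8% of all genes lay below 0. Over the alternatives the endothelial median lay between -0.25 and -0.037 contralaterally and between -0.59 and 0.13 ipsilaterally, and it was below the median of all genes in all 12 settings on both sides. The summed scaled signal of the list was 15769 contralaterally, 16668 ipsilaterally and 14087 in the control group. Slc2a1, the glucose transporter of the blood-brain barrier, had the highest signal and log2 ratios of 0.39 and 0.51, and without it the sums were 8208, 8447.6 and 8310.2. Pecam1 and Cldn5, which mark endothelial junctions, were at -0.24 and -0.19 contralaterally and at -0.10 and -0.14 ipsilaterally, with an error of 0.20. Emcn, an endothelial sialomucin, was at -0.76 and -0.68, with an error of 0.21. Clec14a, an endothelial surface glycoprotein, was the lowest fully measured marker, at -0.79 contralaterally and -0.69 ipsilaterally. Abcg2, an efflux transporter of brain endothelium, was the highest, at 1.01 and 1.03.

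Markers of other vascular cells and of neighbouring tissue also differed between the arrays. All 18 pericyte and smooth muscle markers were below 0 contralaterally, with a median of -0.20, and 13 were so ipsilaterally, with a median of -0.079. Of all genes 44.6% and 34.8% lay below 0, and of fully measured genes 47.6% and 44.1%. Over the alternatives the median of these markers lay between -0.35 and -0.075 contralaterally and between -0.61 and 0.047 ipsilaterally. Vtn, the brightest of them, was at -0.49 and -0.48, and Foxs1 was the lowest fully measured one, at -0.85 and -0.81, with Ndufa4l2 the highest contralaterally, at -0.0016, and Des ipsilaterally, at 0.20. Their summed scaled signal was 6713 contralaterally, 6990.3 ipsilaterally and 7708 in the control group, and 16 of the 18 were fully measured. The 14 leptomeningeal and fibroblast markers had a median of -0.52 contralaterally and -0.22 ipsilaterally, with 13 and 11 genes below 0 and all 14 fully measured. Alternatives for this median ran from -0.67 to -0.36 contralaterally and from -0.76 to -0.087 ipsilaterally. Ptgds, the brightest, was at -0.080 and 0.11. Col1a1 was the lowest contralaterally, at -1.26, and Lum ipsilaterally, at -0.63, while Pdgfra was the highest contralaterally, at 0.043, and Dcn ipsilaterally, at 0.23, and the sums were 93429, 108700 and 105150, or 11861, 15385 and 18939 without Ptgds. The 14 choroid plexus markers had a median of -0.61 contralaterally and 0.65 ipsilaterally, and 1 of them, Cldn2, was not well above background on any array. Their sums were 11098, 77554 and 34552, most of it from Ttr, or 1188.2, 2225.4 and 1590.9 without Ttr. Over the alternatives the choroid plexus median lay between -0.76 and -0.14 contralaterally and between 0.11 and 0.66 ipsilaterally, and the contralateral values nearest to 0 came from normexp and from 50 added to the signal. Slc4a5 was the lowest fully measured one on both sides, at -2.12 and -1.20, Ttr was the highest ipsilaterally, at 1.19, and Calml4 contralaterally, at -0.0032. The contralateral spot of Slc4a5 was dim, at a scaled signal of 12.6. Of 4 lymphatic markers the median was -0.15 and -0.12, both below the median of all genes in all 12 settings, the sums were 12011, 11971 and 13776, and Prox1, which cerebellar neurons and glia may also express, was the brightest. Pdpn was the lowest fully measured one, at -0.68 and -0.67, and Lyve1 the highest, at -0.11 and -0.039. The 2 probes of Pdpn disagreed, at -0.46 and -0.91 contralaterally and at -0.18 and -1.15 ipsilaterally. The remaining marker, Ccl21, was well above background on the ipsilateral array alone, and was there at least 4.357-fold above the control spot. It was the 1 lymphatic marker above 1 ipsilaterally, against 13.4% of all genes. The part of each of these tissues in the ratios of the 10 genes was not tested.

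**Figure D3:**
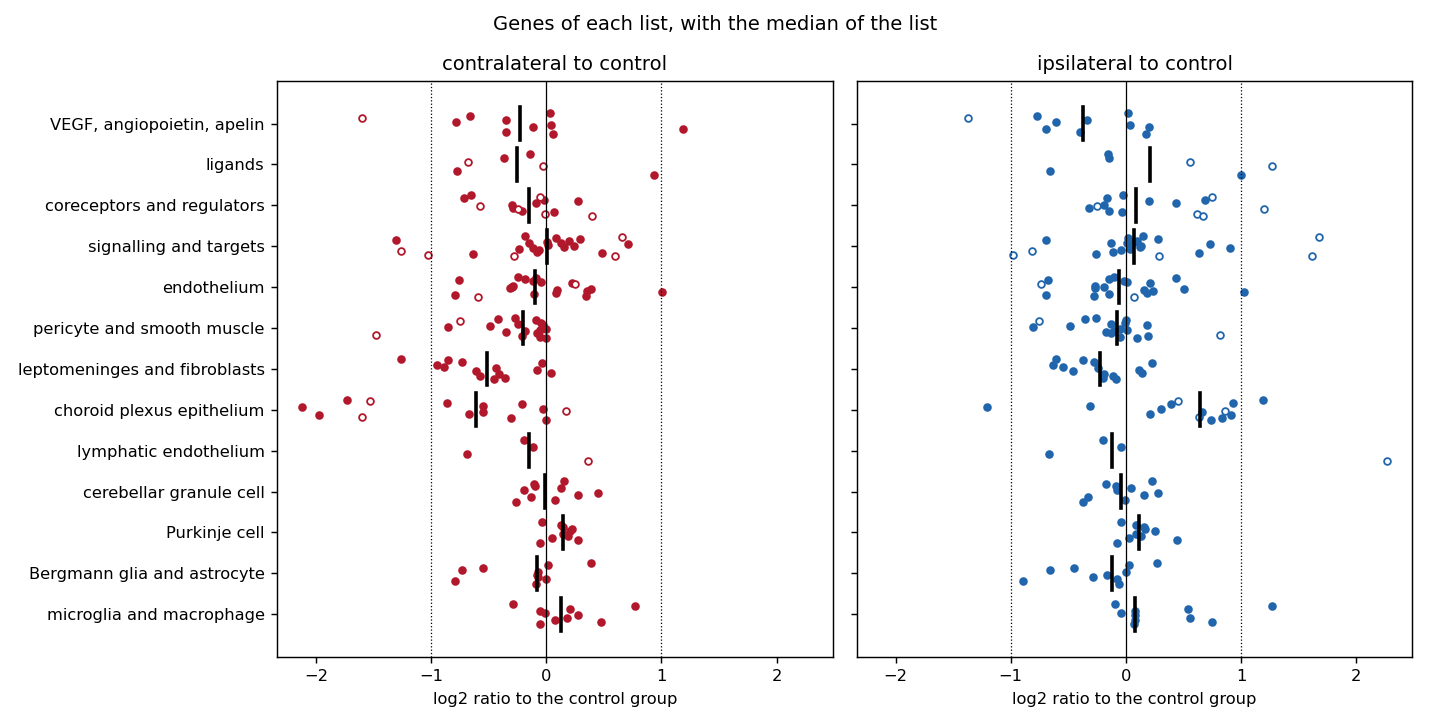
Log2 ratio to the control group of the genes of each list, contralateral on the left and ipsilateral on the right; filled points are fully measured genes, open points are the others, black bars are list medians over all points and dotted lines mark -1 and 1. The median of the 10 genes in the top row was -0.23 and -0.37, that of the endothelial markers -0.097 and -0.058, and that of the choroid plexus markers -0.61 and 0.65.

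Processing altered the ratios of dim genes such as Aplnr and Tie1. Over the reported setting and 11 alternatives, the contralateral log2 ratio of Kdr ranged from -0.81 to -0.63, that of Tek from -0.50 to -0.31 and that of Apln from -0.50 to -0.31, with no change of sign. Ipsilaterally the ranges were -1.30 to -0.72 for Kdr, -0.87 to -0.31 for Tek and -0.93 to -0.34 for Apln, and the lowest values came from leaving the arrays unscaled, where the median of all genes was -0.40. The contralateral ratio of Aplnr was positive in all 12 settings, from 0.43 to 1.22, and its ratio between the sides was positive in all 12 as well, from 0.30 to 2.26. Its ipsilateral ratio was negative in 10 of 12, and below the median of all genes in all 12. Relative to the median of all genes, Kdr was at -0.70 contralaterally and -0.90 ipsilaterally with the percentile scaling, and the same when the arrays were left unscaled. The contralateral ratio of Tie1 was negative in all 12, from -0.93 to -0.26, and the ipsilateral one in 11. Both were below the median of all genes in all 12. Relative to the median of all genes, Flt1, Pgf, Angpt1 and Angpt2 lay between -0.16 and 0.057 contralaterally and between -0.18 and 0.19 ipsilaterally over the 12 settings.

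**Figure D4:**
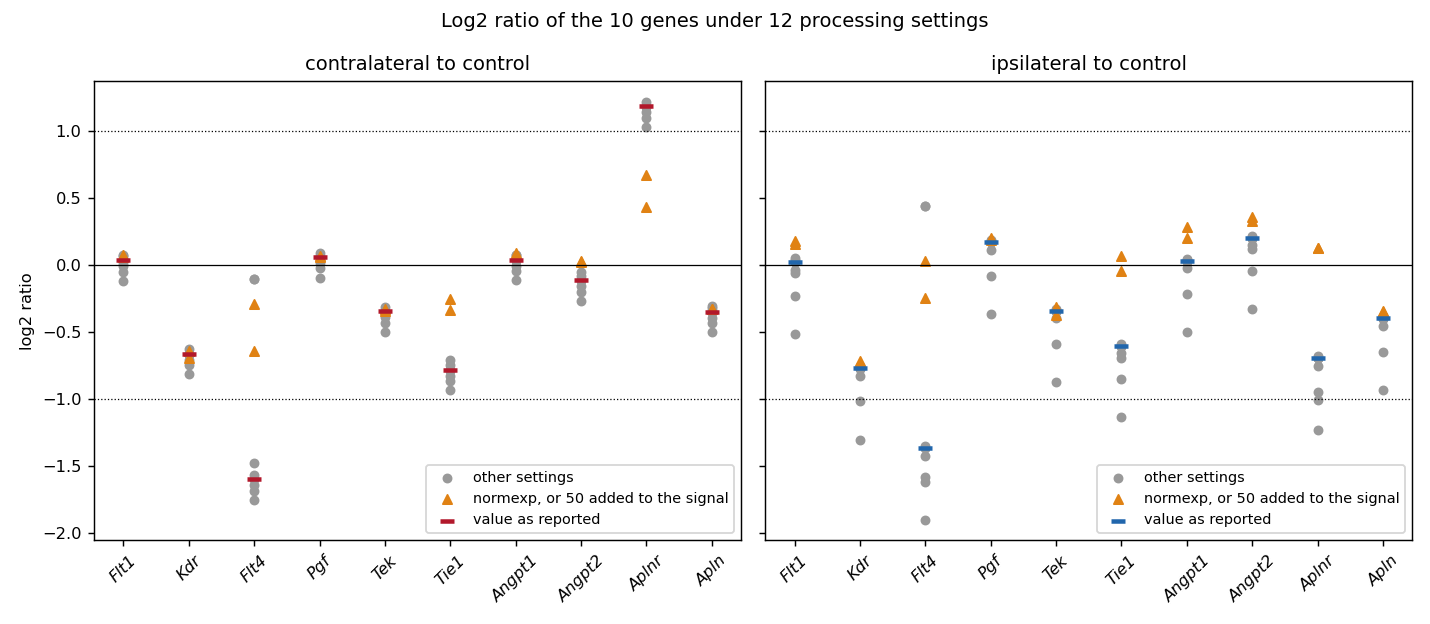
Log2 ratio to the control group of each of the 10 genes under 12 processing settings, contralateral on the left and ipsilateral on the right; coloured bars are the values as reported, orange triangles are normexp and 50 added to the signal, grey points are the other settings, and dotted lines mark -1 and 1. Kdr, Tek and Apln stayed below 0 on both sides, while the ipsilateral values of the other 7 crossed 0. Those of Angpt1, Angpt2 and Pgf did so only in settings that move all genes alike. Those of Tie1 and Aplnr did so only with normexp or with 50 added, and stayed below the median of all genes.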

How the data were processed

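The authors hybridised Cy3-labelled RNA of each pool to a 1-colour Agilent array and deposited the intensity of each spot from Agilent Feature Extraction 12.1.0.3, background-subtracted and detrended within the array. The deposited value table held these intensities times 1 factor per array (1.12 contralateral, 1.45 ipsilateral, 1.04 control, column medians 139.4, 139.6 and 146.9), on a linear scale and not centred. All arrays shared 1 slide and 1 scan.

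Log2 signals were shifted to a common 75th percentile, 759 outlier spots were left out, and spots of a probe, then probes of a gene, were averaged. Scanner error is the processed signal error over the signal, on the log2 scale, combined in quadrature over both arrays. Where a spot was well above background on 1 array only, the fold is a bound against the higher of the dim spot and the lowest signal called well above background on that array. Of 39957 accessions, 17616 matched RefSeq symbols of GRCr8, which was used only for names and promoters. With 1 array per group no test was made, and the number of arrays limits precision. A further gene of the pathway is not reported here.

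Members and lists were chosen with earlier results of these data known. The rule allowed the naming of the 10 genes, any measured ligand, coreceptor or regulator, the highest and lowest fully measured gene and the brightest gene of other lists, and the 5 genes nearest to Aplnr, and not all of these are named. Pecam1, Cldn5, Emcn, Sox17, Cldn2, C1qa and the granule and Purkinje cell markers shown were picked after their values were seen, or as defining markers. Alternatives were no scaling, median scaling, scaling on 8 spike-in probes, quantile normalization, normexp with offset 50 on median signals, the deposited intensities, a signal offset of 50, filters on dim probes (well above background on 1 or on 3 arrays), the brightest probe of a gene, and outlier spots included. Threshold counting was tested on simulated data. Software was Python 3.11.15 with numpy 2.4.6, pandas 2.3.3 and matplotlib 3.10.9, and R 4.3.3 with limma 3.58.1.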

Additional observations from a re-analysis of the deposited data

Results flagged for a closer look

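Aplnr, the apelin receptor, was flagged because the MCAO pools lay on opposite sides of the control group. The contralateral log2 ratio was 1.19, with a scanner error of 0.26, and the ipsilateral one -0.70, with an error of 0.34. With normexp these ratios were 0.43 and 0.13, and with 50 added to the signal 0.67 and 0.12, so both pools then lay above the control group. The median of all genes was then 0.34 and 0.35 ipsilaterally, and relative to it Aplnr was at -0.21 and -0.23. In all 12 settings Aplnr was above the median of all genes contralaterally and below it ipsilaterally. With 1 array on each side, this difference was not tested.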

How the results depend on the processing

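No paired analysis was possible because each group had 1 array. With normexp, and with 50 added to the signal, the count of the 10 genes above 1 was 0 contralaterally and 0 between the sides, and the count below -1 was 0 on both sides. The count below -1 was also 0 on both sides with probes well above background on all 3 arrays and with the brightest probe of each gene. The ipsilateral count below -1 was 4 without scaling, 2 with spike-in scaling and 2 after quantile normalization. The ipsilateral median of the 10 genes was -0.90 without scaling, -0.62 with spike-in scaling, 0.099 with normexp and 0.040 with 50 added, and the median between the sides, with Flt4 as measured, was 0.38 without scaling. Without scaling the median of all genes was -0.40 ipsilaterally, -0.11 contralaterally and 0.28 between the sides, and relative to all genes the median of the 10 was -0.50, -0.27 and 0.11, as with the percentile scaling. The ipsilateral ratio of Flt4 was 0.034 with normexp, where the median of all genes was 0.34. It was 0.44 by its brighter probe, which is also the one well above background on all 3 arrays. The cause was not tested, other than that the last 2 settings leave out the dimmer Flt4 probe. Of 99 results for the 10 genes as a group under an alternative, 79 were labelled the same and 20 moved. The label is coarse, since contralateral medians of -0.11 and -0.38 were counted as the same as -0.23. Dim spots limit Aplnr, Tie1, Angpt2 and the dimmer Flt4 probe, and in the other lists Sh2d2a, Egr3 and Slc4a5 among others. No array could be left out.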

Other observations

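Microglial markers were measured with the other cell types. Of 10 markers, all well above background on every array, 6 were above 0 contralaterally and 8 ipsilaterally, with medians of 0.13 and 0.083. The medians of all genes were 0.039 and 0.13, and those of fully measured genes 0.012 and 0.030. Over the alternatives the microglial median lay between -0.026 and 0.16 contralaterally and between -0.45 and 0.22 ipsilaterally. Cx3cr1, the fractalkine receptor, was highest on both sides, at 0.78 and 1.27 with an error of 0.20, and C1qa was at 0.47 and 0.75. Aif1 was lowest on both sides, at -0.29 and -0.097. The 10 markers of Bergmann glia and astrocytes had medians of -0.077 and -0.12. Gdf10 was highest, at 0.39 and 0.27, and Fabp7 lowest, at -0.80 and -0.89. The medians of the granule cell markers were -0.0098 and -0.042, and those of the Purkinje cell markers 0.14 and 0.11.

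The named gene with the pair of ratios nearest to that of Aplnr was Decr2, a peroxisomal enzyme of fatty acid oxidation, at 0.93 contralaterally and -0.56 ipsilaterally, followed by Rgs17 at 1.13 and -0.20. The distance was 0.29 and 0.50 on the log2 scale, among 11249 fully measured genes with a RefSeq name. Likeness over 3 arrays is a weak measure.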
